A study of Mus musculus with 15 samples.

Results

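Deletional junctions in the core of the Sγ1 switch region are the joins that remove the DNA between 5′ Sμ and the γ1 constant region in the orientation that can be expressed. They were taken as every listed junction on chromosome 12 from 114.569 Mb up to 114.577 Mb (mm9) whose prey and bait parts lay on the same strand. The core is 8 kb long, and 15643 of the 42200 junctions listed in 10 libraries met this rule, against 1519 inversional junctions in the same core. Prey is the DNA found joined to the fixed bait, here the primer site at 5′ Sμ.

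The libraries came from splenic B cells of C57BL/6 mice that were WT, Shld1-/-, Xlf-/- or Shld1-/-Xlf-/-, all stimulated with αIgD-dextran, LPS and IL4. The study compared how loss of SHLD1, a subunit of the shieldin complex that limits resection of DNA ends, and of XLF, a factor of classical end joining, alters class switch joins. By their labels, 3 libraries were WT, 2 Shld1-/-, 3 Xlf-/- and 2 Shld1-/-Xlf-/-. The study's figures print the junction counts of 6 of these 10 libraries under another genotype than the label, so both genotypes are given wherever genotype matters. All p-values measure only the spread between these libraries. Libraries are named by label and numbered in the order of deposit, and the study describes the repeats of each genotype as independent mice, which the labels do not state. The labels also give a target locus that differs with the genotype, a deletion from Sm to Sa for WT, an Ia deletion for both single mutants and 3 inserted CBEs for the double mutant, which the study's text does not describe for these mice. The series as used here holds 15 libraries, of which 2 more of this strain list MH lengths without positions and 3 come from WT mice of another strain.

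Class switch recombination exchanges the μ constant region for a downstream one. Activation-induced deaminase (AID) makes breaks in long repetitive switch regions, preferentially at AGCT and related motifs, and the broken ends are then joined. Joins with no shared base are called direct, joins at short shared sequences use microhomology (MH), and others carry inserted bases. Classical end joining yields mainly direct and short-MH joins, whereas long MH is typical of alternative end joining of resected ends.

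The sequence of the core was read from the sequenced prey parts of the deposited reads. Each of the 8000 bases was covered by at least 28 reads (median 221), and the consensus occurred once in GRCm38, at chr12:113330789-113338788. In the GENCODE annotation of that build no gene overlaps this stretch, and its downstream end lies 265 bp before the start of Ighg1 (chr12:113325240-113330523, minus strand). On the transcribed orientation the core was 36.6% G and 18.4% C. Its central feature is a 49-bp tandem repeat, and 58 copies with at most 15 mismatches to their consensus covered 35.5% of the core. Of these copies 44 lay between 1804 and 4344 bp from the edge that faces Sμ. Between those distances 75.7% of bases equalled the base 49 positions further on, whereas the median over shifts of 20 to 120 bp was 27.6%. Most junctions, many of low mapping quality, fell in such copies. The consensus unit and 3 neighbouring copies are therefore shown, with the AGCT site in capitals. They read 5′ to 3′ on the minus strand, and in mm9 the copies lie at chr12:114574811-114574859, chr12:114574762-114574810 and chr12:114574713-114574761.

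consensus of the repeat unit: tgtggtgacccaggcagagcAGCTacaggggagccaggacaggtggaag
repeat copy 18: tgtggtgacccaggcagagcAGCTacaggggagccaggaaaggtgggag
repeat copy 19: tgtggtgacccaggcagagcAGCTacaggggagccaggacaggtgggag
repeat copy 20: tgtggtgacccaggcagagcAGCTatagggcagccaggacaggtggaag

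The bait begins at position 114664909 on the minus strand, and 93.8% of the deletional core joins used 150 bases of it or fewer. Its first 120 bases (chr12:114664790-114664909) are shown with the stretches that made the most frequent MHs of 6, 7 and 8 bp in capitals. These stretches overlap the letters of the repeat unit above.

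bait: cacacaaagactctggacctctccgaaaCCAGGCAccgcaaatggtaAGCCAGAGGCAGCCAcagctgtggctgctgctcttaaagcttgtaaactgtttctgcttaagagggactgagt

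Depth differed widely between libraries, from 111 deletional core junctions (median 654) to 4922. The library labelled Shld1-/-Xlf-/- 3 was the smallest, and those labelled Shld1-/- 2, Xlf-/- 3 and WT 1, all printed as WT, held 4922, 4554 and 2230. Intervals below are 95% Wilson intervals and cover counting error only. Where the bait lay near the primer, the joins removed 87.8 to 95.9 kb of DNA.

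A property of the lists bears on every statement about position. The pipeline marked 26.1% to 44.2% of the deletional core rows per library as of low mapping quality. All 6285 marked rows lay between 1804 and 4344 bp from the Sμ-facing edge, where they were 64.5% of the 9751 junctions, and none of the 5892 junctions in the rest of the core was marked. The same stretch held all 1766 rows marked as duplicates, and 0 of these were free of the mapping mark. The mark followed the likeness of the repeat copies. In the 32 copies that matched the consensus at 90% or more of their bases, 78.5% of 6903 junctions were marked, against 46.4% of 660 in the 8 copies between 80% and 90%, and 1.33% of 1649 in the 18 copies below 80%. The main values on position are therefore given with all rows and again with the unmarked rows only. Where no second value is given, all rows were used. Which copy a marked junction belongs to was not tested.

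**Figure D1:**
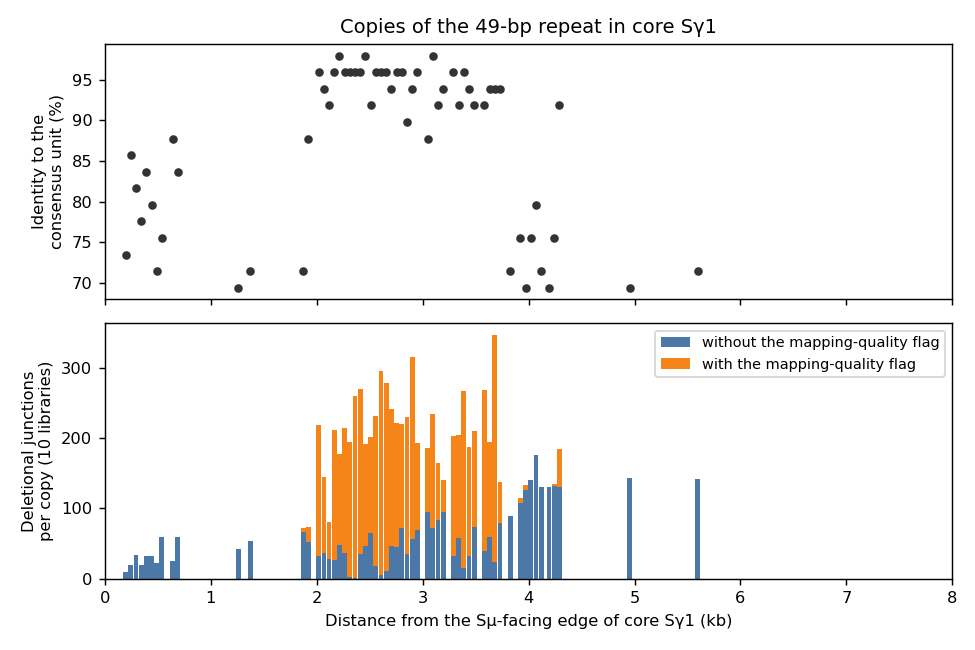
Copies of the 49-bp repeat along core Sγ1. The upper plot gives each copy's identity to the consensus unit (%) against its distance from the Sμ-facing edge (kb), and the lower plot the deletional junctions of the 10 libraries per copy, split by the mapping-quality mark: the near-identical copies between 2 and 4 kb hold most marked junctions.

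Junctions were spread over the whole core but concentrated in its middle. Taking each library's junctions in 500-bp bins by distance from the Sμ-facing edge, the bin at 2500 to 3000 bp held 14.1% ± 3.28 (SD, n = 10) of the junctions. The bins at 2000 to 2500 bp and at 3000 to 3500 bp held 13% ± 3.10 and 13% ± 2.48. A lower rise at 5000 to 5500 bp, a bin picked out after its value was seen, held 9.0% ± 2.61. The edge bins held 1.51% ± 0.907 next to Sμ and 1.38% ± 1.09 next to the constant region. In the fullest bin, which was named for its high values, the libraries ran from 7.21% to 17.5%, with a median of 15.0%. The highest values of the edge bins were 2.91% and 3.60%.

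With unmarked rows only, these bins lost their lead and the peak moved downstream. The bin at 2500 to 3000 bp then held 4.66% ± 1.12, and those on either side 3.08% ± 1.39 and 6.13% ± 1.08. Libraries in the bin at 2500 to 3000 bp ran from 2.56% to 6.06%. They overlapped with the edge bins, which reached 5.21% next to Sμ and 5.13% next to the constant region. The fullest bin was the one at 5000 to 5500 bp with 14.2% ± 2.63, followed by 4000 to 4500 bp with 11.5% ± 2.80 and 5500 to 6000 bp with 10.3% ± 1.49. Per base, the marked stretch held 1.64 to 3.81 times (median 3.59) the junctions of the rest of the core with all rows, and 0.554 to 1.36 times (median 1.18) with unmarked rows. A count without the marked rows also leaves out real junctions in the repeat block, so neither profile gives its level alone. The second rise at 5000 to 6000 bp was free of marked rows. The 500-bp bins there held 12 and 10 AGCT sites, against 2 to 5 in each of the 3 bins next to the constant region. The bins with the most AGCT sites, 17 at 1000 to 1500 bp and 16 at 4500 to 5000 bp, held 3.05% ± 1.37 and 4.97% ± 1.81 of all junctions, and 4.89% ± 1.98 and 8.11% ± 3.16 of the unmarked ones.

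**Figure D2:**
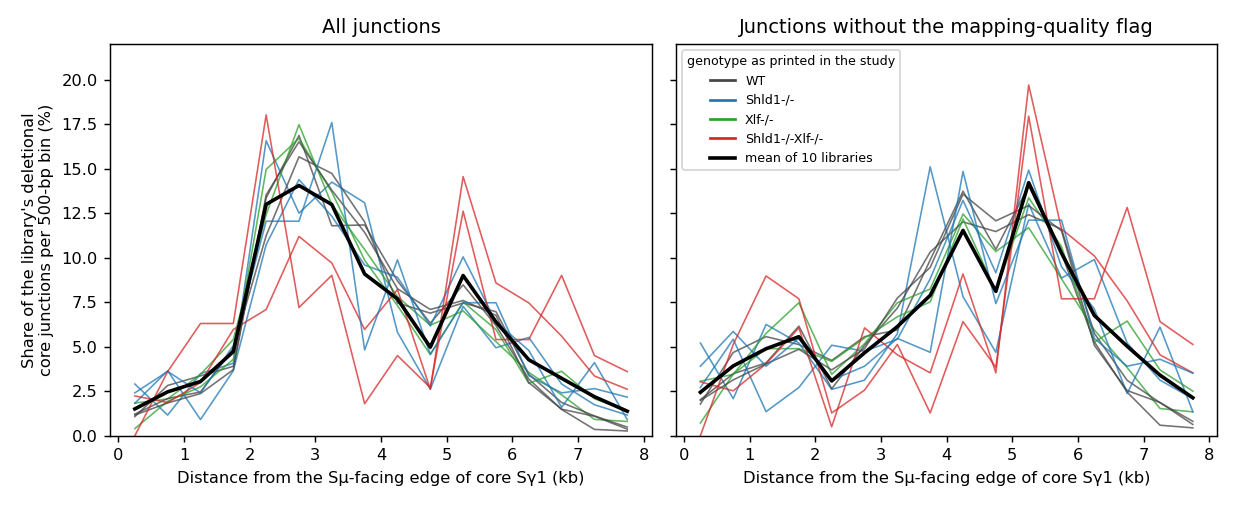
Share of each library's deletional core junctions (%) in 500-bp bins against distance from the Sμ-facing edge (kb), with all rows on the left and without rows marked for mapping quality on the right. Thin lines are the 10 libraries, coloured by the genotype printed in the study's figures, and the black line is their mean: the peak lies at 2 to 3.5 kb with all rows and at 4 to 6 kb without marked ones.

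The shape was much alike in the deep libraries. Over the 16 bins, the 10 pairs among the 5 libraries with at least 500 junctions correlated at 0.956 to 0.989 (median 0.977), and at 0.890 to 0.987 with unmarked rows. All 45 pairs ranged from 0.383 to 0.989. These are descriptions across bins that share one sequence. The median distance from the Sμ-facing edge ran from 3314 to 4204 bp over the 10 libraries (median 3390), and 9 of them lay between 3314 and 3655 bp. The exception, at 4204 bp, was the library labelled Xlf-/- 2 and printed as Shld1-/-Xlf-/-. With unmarked rows the medians ran from 4167 to 5273 bp.

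Copies of the repeat cover 35.5% of the core. Over the 10 libraries they held 54.9% ± 6.82 (SD) of all junctions but 33.2% ± 6.05 of the unmarked ones. Of the junctions in copies 62.4% were marked. With all rows, the copies held 60.4%, 58.3% and 60.8% of the junctions in the 3 libraries printed as WT. They held 57.3%, 53.4% and 54.0% in those printed as Shld1-/-, and 58.7% and 60.4% in those printed as Xlf-/-. In the pair printed as Shld1-/-Xlf-/-, labelled Xlf-/- 2 and Shld1-/-Xlf-/- 3, the share was 42.5% and 43.2%, below all others. With unmarked rows these 2 libraries were again lowest, at 26.3% and 20.5%, and the other 8 ran from 29.7% to 39.4%. This contrast was seen before it was set out and was not tested.

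Single positions carried little. Junctions occurred at 5209 of the 8000 positions, with a median of 2 at a position that had any, and 47 positions were hit in 6 or more libraries. The 10 positions with the highest mean share among these held 0.984% of all junctions together, and all 10 lay in the stretch that holds the marked rows. The first of them, 114574409, had 22 junctions in 8 libraries, a mean share of 0.300% ± 0.397, with 7 different bait ends. Its counts were 5 in each of the libraries labelled Shld1-/- 3 and Xlf-/- 3, 4 in Xlf-/- 1 and 0 to 3 in the others. One junction of the smallest library alone adds 0.0901 percentage points to such a mean. The highest pooled count, 29 at position 114573752, came from 5 libraries only, 14 of it from a single library, and 27 of its rows were marked. Of the 22 joins at 114574409, 15 had MH of 4 bp or more. At 114572707, by contrast, 9 of 17 joins were direct and none had such MH. The 40 bases around 5 of the positions are shown, with the bases removed by the join in lower case and those retained in capitals. The first 3 are among these 10 positions, and the last 2 are the leading positions among unmarked rows.

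position 114574409: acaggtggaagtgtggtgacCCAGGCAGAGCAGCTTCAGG
position 114573996: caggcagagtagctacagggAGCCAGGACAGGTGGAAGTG
position 114574100: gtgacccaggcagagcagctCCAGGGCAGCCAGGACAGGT
position 114572034: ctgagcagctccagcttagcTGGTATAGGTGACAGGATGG
position 114573018: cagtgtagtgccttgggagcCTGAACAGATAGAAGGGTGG

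The retained part at 114574409 opens with the bait's CCAGGCA, and that at 114573996 with its AGCCAG. At 114574100 the break follows an AGCT site directly, and 10 of its 19 junctions came from the library labelled Shld1-/- 2. At 114572034, where no row was marked, the break split an AGCT between C and T, and 12 junctions came from 6 libraries with 9 bait ends, 5 of them direct and 6 with insertions. With unmarked rows 7 positions were hit in 6 or more libraries, and none of them was among the 10 above. AGCT lay within 2 bp of 2 of those 10 positions and of 1 of these 7, against 11.4% of all core positions. AGC or its complement GCT lay within 2 bp of 7 of the 10 and 2 of the 7, against 26.3%. The 40 bases around 5 of the 17 positions in both lists occurred more than once in the core, so their counts may belong to another copy.

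Over all joins, motifs of AID targeting were more frequent at junctions than along the core, with little excess of AGCT at unmarked direct joins. AGCT lay within 2 bp of 16.6% ± 2.80 (SD, n = 10) of the junctions, compared with 12.1% of all positions when these were weighted to the same bins, and was above that level in 9 of 10 libraries. With unmarked rows the share was 17.4% ± 3.30 against 12.3%, above it in 10 of 10. AGC or its complement GCT lay within 2 bp of 36.2% ± 3.87 against 27.1%, in 10 of 10 libraries. Every AGCT holds an AGC and a GCT, so the motif sets overlap. Joins with MH need letters shared with the bait, whose first 150 bases hold AGCT 2 times and AGC 4 times. For these joins, which are part of all joins, the share of positions is therefore no level to compare with. Over all 8000 positions of the core, read on both strands, AGCT lay within 2 bp of 11.4% and AGC or GCT within 2 bp of 26.3%. Joins with an insertion lay nearest to AGCT, at 21.7% ± 7.30 in the 9 libraries with at least 20 such joins, against 11.8% of positions. Direct joins reached 16% ± 4.68 in 8 libraries, above the positions in 7 of them. With unmarked rows direct joins were at 13.6% ± 4.25 against 12.5% of positions, above them in 6 of 8 libraries, and joins with insertions at 22% ± 6.07 against 11.9%, in 8 of 8. A motif match is a description and not a site of deamination.

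Within the 133 AGCT sites of the core the break was placed unevenly. Direct joins in which C was removed and T retained were 2.24 ± 0.914 times (SD, n = 5 libraries with at least 100 direct joins) as frequent as the average position, 159 joins in all. A break one base earlier, between G and C, occurred at 0.853 ± 0.509 times the average with 54 joins, and one directly after the site at 0.979 ± 0.775 times with 88. With unmarked rows, the 3 libraries printed as WT were deep enough and gave 2.95 ± 0.582 for the break between C and T. There the break between G and C was at 1.19 ± 0.194 and the one between A and G at 0.579 ± 0.0716. The lowest of the 3 values for the break between C and T was 2.41, and the highest for these others was 1.35. A break directly after the site was at 1.52 ± 0.0214 there.

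Folding all repeat copies onto a single unit gives the place of a junction within the unit, whichever copy it was assigned to. The copies differ in sequence, and 44 of the 58 held an AGCT at the consensus place. The 49 positions of the unit are counted from its first printed base, the AGCT takes positions 21 to 24, and an even spread would put 2.04% of the joins at each. Direct joins in repeat copies began most often at position 35, with 8.38% ± 7.76 (SD, n = 8), and at position 24, the T of the AGCT, with 5.13% ± 3.12. Both were above the even share in 7 of 8 libraries. With unmarked rows position 35 stayed first at 4.82% ± 1.90, but position 37 was nearly level at 4.77% ± 2.37. Both were above the even share in 6 of 6 libraries, and position 24 was at 2.70% ± 1.68. The leading positions were picked out after their values were seen. Joins with insertions began most often at position 24, with 10.3% ± 4.71, above the even share in 8 of 8 libraries. With unmarked rows position 24 held 7.85% ± 5.02 of them, above the even share in 5 of 6 libraries.

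Joins with MH of 4 bp or more had another pattern. Of 1203 such joins in repeat copies, position 10 took 19.6% ± 9.69 (SD, n = 9), position 32 took 12.1% ± 5.28 and position 29 took 9.15% ± 5.22. These positions were picked out after their values were seen. Joins with such MH need letters shared with the bait where they start, so the even share is no level to compare them with. With unmarked rows the same positions held 13.6% ± 7.88, 7.39% ± 3.20 and 6.91% ± 4.85, with position 12 at 7.62% ± 3.93 between them. Position 10 is the start of CCAGGCA in the unit and position 32 the start of AGCCAG, the letters in capitals in the bait. Direct joins began at positions 10, 29 and 32 in 1.59% ± 0.871, 2.12% ± 1.55 and 2.17% ± 1.41, close to the even share.

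**Figure D3:**
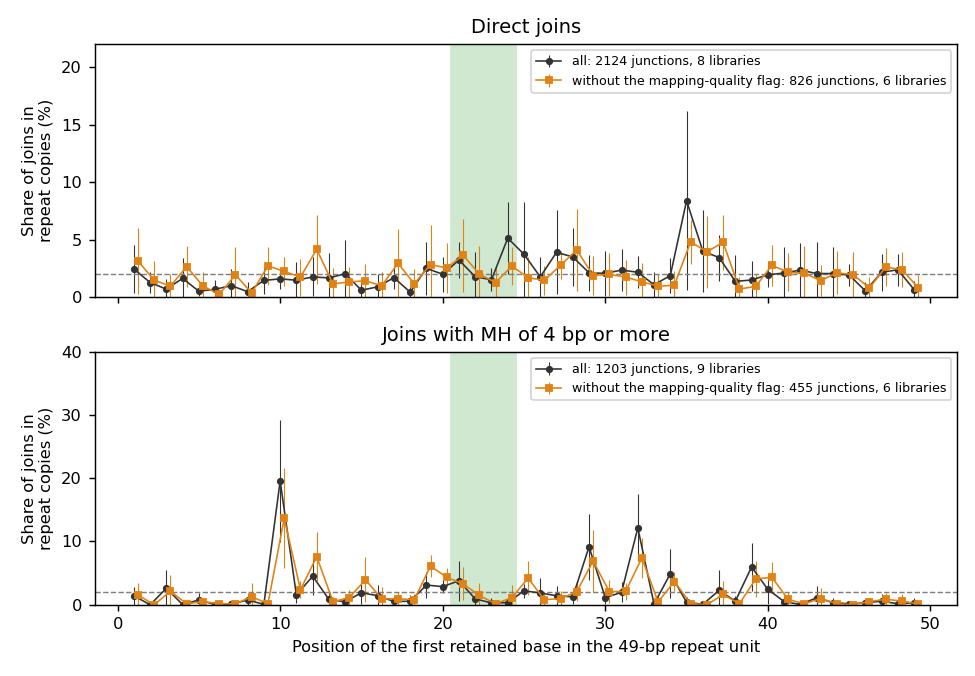
Share of joins in repeat copies (%) that start at each of the 49 positions of the unit, as mean and SD over libraries with at least 20 such joins, for direct joins above and for MH of 4 bp or more below. Black shows all rows, orange unmarked rows, the dashed line an even spread and the green band the AGCT site: long-MH joins pile up at positions 10, 29 and 32, direct joins with all rows at 24 and 35, of which position 24 is not among the leading ones in unmarked rows.

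Pooled over libraries, a single sequence made most of the joins with MH of 7 bp and another most of those with 8 bp. This was not so at the shorter lengths. At 1 bp, G made 1532 of 3375 joins (45.4%), and at 2 bp AG made 534 of 2435. CAG made 462 of the 1679 joins with 3 bp. At 4 bp the most frequent letters made 81 of 747 joins (10.8%), spread over 68 sequences, and at 5 bp CCAGG made 47 of 440 (10.7%), spread over 80. At 6 bp AGCCAG made 108 of 327 and AGGCAG 56. At 7 bp CCAGGCA made 123 of 206 (59.7%), and it occurred in all 10 libraries at 41 positions of the core. Its 1 bait end was set by the sequence, since the first 150 bait bases hold CCAGGCA 1 time. At 8 bp GGCAGCCA made 93 of 174 (53.4%) in 8 libraries, 38 of them in the library labelled Shld1-/- 2. Over the 6 libraries with at least 10 joins of 8 bp its mean share was 48.8% (30% to 74.5%). CCAGGCA is present at 48 places in the core, 39 of them in repeat copies, and 91.1% of its joins fell in copies. Of its 123 joins 84 were marked for mapping quality, as were 77 of the 93 with GGCAGCCA. Among joins with MH of 4 bp or more, CCAGGCA made up 2.4% to 5.45% in the libraries printed as WT and 4.23% to 13% in the other 7. GGCAGCCA was at 3.85% to 7.77% in the former and at 0 to 6.90% in the latter, so the 2 sequences were not ordered alike.

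MH was taken as the bases of a read that align to both bait and prey, and long overlaps were not always exact. The overlapping letters equalled both the bait and the core sequence in 99.6% of 7489 joins with 1 to 3 bp, in 81.2% of 1894 joins with 4 to 8 bp and in only 3.45% of 145 joins with 9 bp or more. Counting only exact overlaps, joins with MH of 4 bp or more made up 7.54% to 8.25% of the joins without insertion in the libraries printed as WT. They made up 21.4% to 22.5% in those printed as Shld1-/-, 16.1% and 24.3% in those printed as Xlf-/-, and 26.7% and 35.1% in those printed as Shld1-/-Xlf-/-.

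Direct joins and long MH did not differ detectably between the ends of the core. The share of direct joins among joins without insertion was 22.4% ± 7.82 (SD, n = 10) in the 4 kb nearer Sμ and 17.9% ± 11.2 in the 4 kb nearer the constant region. The difference of -4.48 ± 6.25 percentage points was negative in 8 of 10 libraries and did not pass after adjustment (exact two-sided sign-flip test, p = 0.0488, adjusted over 3 measures 0.146). The 2 libraries with the opposite sign, labelled WT 1 and Xlf-/- 3, are both printed as WT, with differences of 5.36 and 4.07. The third library printed as WT, labelled Shld1-/- 2, was at -1.49. Over the 5 libraries with at least 500 junctions the mean difference was 0.137, with 3 of them below 0. No library printed as lacking SHLD1 is among these 5, so depth and printed genotype cannot be told apart here. Without the library labelled WT 1 the adjusted p was 0.0469 in the same exact test. MH of 4 bp or more was at 23.6% ± 10.7 nearer Sμ and 24.2% ± 11 beyond, a difference of 0.520 ± 4.09 (exact sign-flip test, adjusted p = 0.713). Insertions were at 14.6% ± 5.69 and 14.2% ± 3.74, a difference of -0.448 ± 3.28 (exact sign-flip test, adjusted p = 0.713).

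Deletional junctions lay farther from Sμ than inversional ones of the same core. The median distance was 3484 ± 269 bp (SD, n = 10) for deletional and 2486 ± 132 bp for inversional junctions. The difference of 999 ± 244 bp had the same sign in 10 of 10 libraries, from 716 to 1568 bp (exact two-sided sign-flip test, p = 0.00195, the smallest this design allows, adjusted over 3 measures 0.00586). Without marked rows the difference was 2431 bp with the same adjusted p of 0.00586 in the exact test. The first 1000 bp next to Sμ showed the contrast most plainly. Inversional junctions had 9.25% ± 2.70 and 10.8% ± 3.16 in the first 2 bins, and deletional ones 1.51% ± 0.907 and 2.47% ± 0.892. At 5000 to 5500 bp the order was the other way, with 3.19% ± 1.63 of the inversional and 9.0% ± 2.61 of the deletional junctions.

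**Figure D4:**
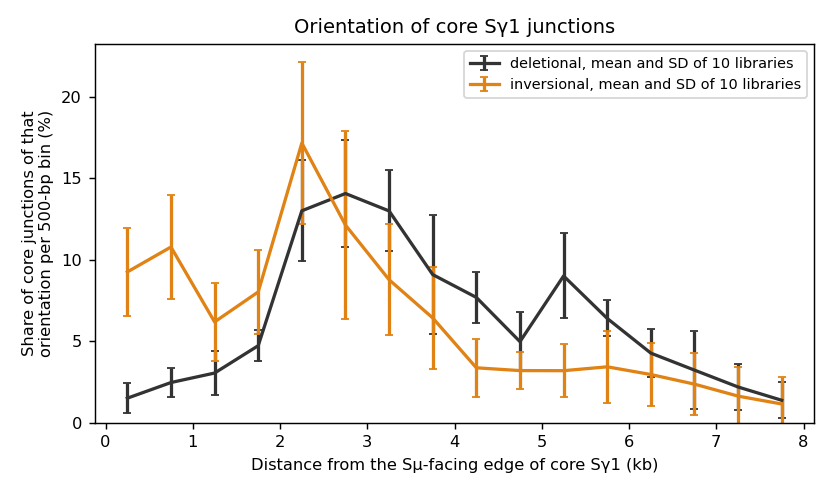
Share of core junctions of either orientation (%) per 500-bp bin against distance from the Sμ-facing edge (kb), as mean and SD of 10 libraries. Inversional junctions exceed deletional ones in the bins up to 2500 bp from the Sμ-facing edge and lie below them in all bins beyond.

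Direct joins were also more frequent among deletional than inversional junctions. They made up 20.6% ± 8.97 (SD, n = 10) of the former and 14.9% ± 10.8 of the latter, a difference of 5.71 ± 5.56 percentage points, positive in 9 of 10 libraries (exact two-sided sign-flip test, p = 0.00977, adjusted 0.0146). The exception was the library labelled Shld1-/- 2, at -2.65. The largest differences were 15.7, 12.3 and 9.51, in the libraries labelled WT 2, Shld1-/- 3 and Shld1-/-Xlf-/- 1, which are the 3 printed as Shld1-/-. Over the 5 libraries with at least 500 junctions the mean difference was 2.49 (exact sign-flip test, p = 0.3125, adjusted p = 0.469). There 5 libraries cannot reach an exact p below 0.0625. MH of 4 bp or more was at 23.8% ± 10.5 and 25% ± 11, a difference of -1.22 ± 9.71 with 3 libraries above 0 (exact sign-flip test, adjusted p = 0.719). Inversional junctions numbered only 77 to 256 per library.

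Between genotypes, the 3 libraries printed as WT had like shares of join types although each carries another label. In the 3 libraries printed as WT, labelled WT 1, Shld1-/- 2 and Xlf-/- 3, direct joins made up 30.7% (28.6 to 32.8), 30.7% (29.3 to 32.1) and 31.1% (29.6 to 32.6). In those printed as Shld1-/-, labelled WT 2, Shld1-/- 3 and Shld1-/-Xlf-/- 1, they made up 22.8% (18.3 to 28.0), 23.9% (19.8 to 28.6) and 18.5% (14.7 to 23.1). In those printed as Xlf-/-, labelled WT 3 and Xlf-/- 1, they made up 19.3% (16.8 to 22.2) and 14.4% (12.6 to 16.4). In those printed as Shld1-/-Xlf-/-, labelled Xlf-/- 2 and Shld1-/-Xlf-/- 3, they made up 7.76% (5.02 to 11.8) and 6.93% (3.40 to 13.6). The libraries printed as WT were the 3 highest and those printed as doubly deficient the 2 lowest. The intervals of the former did not overlap with those of any other library, whereas that of the library labelled Shld1-/-Xlf-/- 3, up to 13.6, met that of Xlf-/- 1, from 12.6.

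MH of 4 bp or more ran the other way. It made up 10.9%, 12% and 11.2% of joins without insertion in the libraries printed as WT, in the order given above, and 24.9%, 27.8% and 26.4% in those printed as Shld1-/-. It made up 19.3% and 28.6% in those printed as Xlf-/-, and 42.9% (36.8 to 49.1) and 33.7% (25.2 to 43.3) in those printed as Shld1-/-Xlf-/-. Insertions had another order. They made up 17.2%, 17.5% and 18.2% of all joins in the libraries printed as WT, 17.2%, 17.8% and 20.7% in those printed as Shld1-/-, and 8.51% to 10.5% in the 4 libraries printed with Xlf-/-. By label the insertion shares of the Xlf-/- group ran from 8.58% to 18.2%. Single inserted bases were 45.3% to 48.2% of the insertions in the libraries printed as WT and 23.0% to 42.3% in the others.

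**Figure D5:**
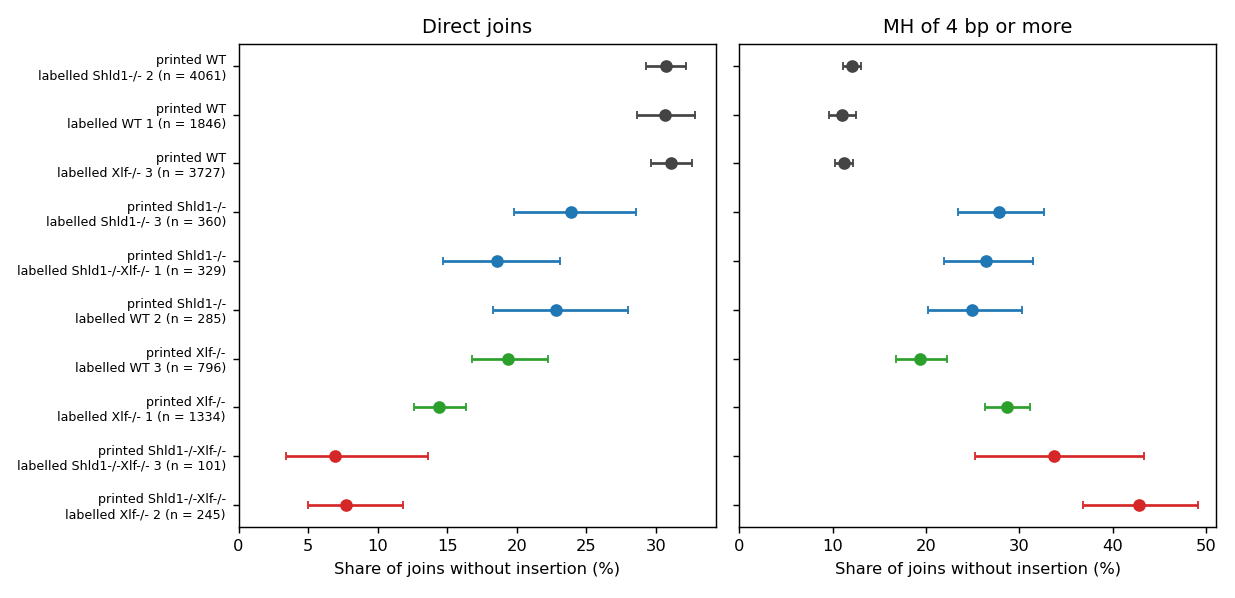
Share of direct joins (left) and of MH of 4 bp or more (right) among deletional core joins without insertion (%), with 95% Wilson intervals, for the 10 libraries. Each row names the printed and the labelled genotype: the libraries printed as WT lie together, and those printed as Shld1-/- and Xlf-/- interleave between them and the pair printed as Shld1-/-Xlf-/-.

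Grouped by label, no effect of either gene passed. Differences are means over the 2 genotypes of the other gene, tested by exact two-sided permutation of the labels within those genotypes and adjusted over 4 measures. With SHLD1 loss by label, direct joins changed by -0.999 percentage points (exact permutation test, adjusted p = 0.970) and MH of 4 bp or more by 2.01 (exact permutation test, adjusted p = 0.970). The median distance differed by -45.8 bp (exact permutation test, adjusted p = 0.970) and the interquartile range of distance by 424 bp (exact permutation test, adjusted p = 0.400). With XLF loss by label, direct joins differed by -10.5 percentage points and MH of 4 bp or more by 9.65 (exact permutation test, adjusted p = 0.222 for both). The interquartile range differed by 526 bp (exact permutation test, adjusted p = 0.133) and the median distance by 71.1 bp (exact permutation test, adjusted p = 0.817).

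Grouped by printed genotype, most of these values passed. SHLD1 loss went with -9.30 percentage points of direct joins and 14.6 of MH of 4 bp or more, and with an interquartile range wider by 644 bp (exact permutation test, adjusted p = 0.0222 for each, at an unadjusted p of 0.0167 that is the smallest possible). XLF loss went with -14.2 and 12.2 percentage points (exact permutation test, adjusted p = 0.0200 for both) and with a range wider by 417 bp (exact permutation test, adjusted p = 0.0400). Without marked rows the widening with SHLD1 loss was 341 bp and no longer passed (exact permutation test, adjusted p = 0.05, not below the threshold), while that with XLF loss was 295 bp and did (exact permutation test, adjusted p = 0.0133). In the 4 libraries for which label and figures give one genotype, 1 of each kind and so without a test, direct joins were 30.7% (WT), 23.9% (Shld1-/-), 14.4% (Xlf-/-) and 6.93% (Shld1-/-Xlf-/-). The spread of positions in the doubly deficient libraries as printed, an interquartile range of 2812 and 3637 bp, exceeded the 2110 to 2209 bp of those printed as WT. These 2 libraries are also among the shallowest, with 268 and 111 junctions, and depth and genotype cannot be told apart among them. Which genotype assignment is right was not tested.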

How the data were processed

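CSR-HTGTS joins were read by linear amplification from a 5′ Sμ primer and sequenced in pairs. The authors' pipeline, which per the labels used Bowtie2 and mm9, deposited 1 list per library with a row per junction. Its positions, strands and flags are neither counts nor a normalized unit, and the authors' methods state that duplicates were removed. Rows were used as deposited, and MH is the overlap of bait and prey in the read, negative values being insertions. Computation used scipy 1.17.1 with numpy 2.4.6, and pandas 2.3.3 under Python 3.11.15. Shares of direct joins and MH exclude insertions. A library needed at least 20 junctions on each side of a comparison, and all 10 had them. The core was split 4 kb from either edge, bins span 500 bp, and the threshold was an adjusted p of 0.05. Named bins are the 3 with the highest mean share and both edges. Named positions are the 10 with the highest mean share among those hit in at least 6 libraries, positions within 2 bp being joined. The members, bins, motifs and tests were chosen with earlier results of these data known. Sequences were read from the deposited reads at their mm9 positions, since an mm9 genome was not used here. The tests were checked on simulated data with counting error only, so the check does not cover further spread between libraries. The lists without positions and those of the other strain were not used here.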

Additional observations from a re-analysis of the deposited data

How the results depend on the processing

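The larger distance of deletional than inversional junctions kept its sign in every setting run, and the excess of direct joins among deletional junctions did too. Both missed the threshold only in the 5 libraries with at least 500 junctions, at 913.6 bp and 2.49 percentage points. There 0.0625 is the smallest exact p, and the difference in direct joins lay well above it (exact sign-flip test, p = 0.3125, adjusted p = 0.469). In those 5 libraries the difference in direct joins along the core (downstream minus upstream) was 0.137 against -4.48 in all 10. The difference in MH of 4 bp or more along the core was 0.520, and turned to -0.287 in those 5 libraries, -0.685 without rows marked for mapping quality, -2.05 for MH of 5 bp or more and -0.794 between the ends of the core with its middle left out, which gave 0.519 for insertions. For MH between orientations, -1.22 became 1.17 for MH of 5 bp or more and 0.446 in the 5 libraries. Leaving out 1 library at a time moved direct joins along the core between -5.57 and -3.26, the first of which, without the library labelled WT 1, passed (exact sign-flip test, adjusted p = 0.0469). It moved MH along the core between -0.406 and 0.976 and MH between orientations between -3.06 and 0.799.

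By label, the difference in median distance with SHLD1 loss was -45.8 bp, and turned to 104 bp without duplicate rows, 236 bp without rows marked for mapping quality, 132 bp with identical junctions collapsed and 111 bp for means. Under the printed genotype it was 272 bp, and 520 bp without marked rows. The printed genotype without marked rows, and leaving out 44 rows whose bait aligned far from the primer, were settings chosen after seeing the data, and the latter changed no call. Under the printed genotype, with all rows and without marked rows, SHLD1 loss gave -9.30 and -10.8 percentage points of direct joins and 14.6 and 16.2 of MH of 4 bp or more, XLF loss gave -14.2 and -14.8, and 12.2 and 14.3, and the widening of the interquartile range with XLF loss was 417 and 295 bp. That with SHLD1 loss was 644 bp with all rows. Leaving out 1 library at a time under the labels, the ranges for SHLD1 loss were -120 to 92.4 bp for the median, 171 to 677 bp for the interquartile range, -3.90 to 2.34 for direct joins and -2.09 to 5.94 for MH. For XLF loss they were -67.1 to 146 bp for the median, 273 to 779 bp for the interquartile range, -13.9 to -7.63 for direct joins and 5.71 to 13.7 for MH. Without the library labelled Xlf-/- 3, direct joins (-13.9) and the range (593 bp) passed (exact permutation test, adjusted p = 0.0333 for both). No paired analysis was possible because the labels carry no replicate numbers that tie libraries of different genotypes. Comparisons within a library were paired by library. Counts of 111 to 438 junctions in 5 libraries limit what could be detected, and long alignment overlaps are often inexact.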
